A study of Mus musculus with 26 samples.

Results

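Gene expression in mouse cortex was compared between 6 libraries made after an experimental stroke and 3 libraries made after a sham operation, all from mice fed the high-fat diet (HFD) for 6 weeks. These 9 libraries were chosen by their labels for operation, diet and weeks on the diet, out of 26 libraries in the series. The mice were C57BL/6J, an inbred strain that gains weight on fat-rich food, and the HFD supplied 60% of its kcal as fat. Stroke tissue was the core of the lesion with a margin of 1 to 2 mm around it, taken 3 days after the stroke, and sham tissue was cortex. The labels name no genetic alteration in any group, and they give neither an age, nor a batch, nor a statement that each library came from a separate mouse, so p-values speak only of the spread among libraries, which may be technical. For the side-by-side values at the end, 4 stroke and 3 sham libraries from mice on the control diet (6% of kcal as fat) for the same 6 weeks were used. The comparison addresses which genes respond to stroke when the mice have eaten a high-fat diet.

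When blood supply to the cortex stops, neurons in the core die within hours, and the surrounding tissue reacts over days. Microglia, the resident macrophages of the brain, and monocytes arriving from the blood clear debris, astrocytes swell and build a border around the lesion, and endothelial cells and fibroblasts remodel vessels and matrix. Dividing glia, phagocytes filled with lipid and an interferon response are well known in such tissue in the first week. In bulk RNA, fewer cells of a type and less RNA per cell cannot be told apart.

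The 9 libraries held between 13753595 and 16962682 counts in genes. Levels are given as CPM, the counts of a gene scaled to a fixed library total, after scaling of library sizes by the trimmed mean of M values (TMM), and changes as log2 fold changes of stroke over sham with their standard error (SE). A gene is called when its adjusted p is below 0.05 in edgeR's quasi-likelihood test with Benjamini-Hochberg adjustment over the 16325 genes tested, here written "edgeR adjusted p". By this test 3769 genes were called (23.1% of those tested), 2324 of them higher after stroke (14.2%) and 1445 lower (8.85%). The 2 directions differed in size. At least a 2-fold rise was reached by 1235 called genes (7.57%) and at least a 2-fold fall by 41 (0.251%). At 4-fold the numbers were 596 and 0. The median log2 fold change was 1.08 over genes called higher, -0.31 over genes called lower and -0.02 over all genes tested. In 2583 genes (15.8%) every stroke library lay above every sham library, and in 1740 genes (10.7%) every stroke library lay below.

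Several libraries stood apart from their group in ways that touch the results. The share of fragments outside genes was 30.4 ± 1.30% (SD, n = 6) after stroke and 36.4 ± 1.99% (SD, n = 3) after sham surgery, without overlap (exact two-sided permutation test, p = 0.0119, the smallest that 6 against 3 libraries allow, adjusted p = 0.0278 over 7 measures). Haemoglobin genes took 0.0202 ± 0.00584% of the counts after stroke and 0.00915 ± 0.00150% after sham surgery, with the same p. Stroke library 6 and sham library 2 held far more choroid plexus RNA than the others: transthyretin (Ttr), a product of that tissue, was at 878 CPM and 246 CPM there and between 2.14 and 47.2 CPM in the other 7. Sham library 2 was also the sham library with the highest level of the excitatory neuron list, and without it 1398 genes were called higher and 593 lower. With the share outside genes added to the fit (below called the covariate), 1033 genes were called higher and 310 lower. Because this share did not overlap between stroke and sham, it cannot be fully told apart from the operation in these 9 libraries. A call lost with the covariate therefore does not show which of them the gene followed. The part of tissue composition and RNA quality in the results was not tested. Where a group below lost many calls under these settings, the loss is given beside it. In other groups the covariate ended 4 of 21 calls among reactive astrocyte genes, 4 of 20 among activated phagocyte genes and 4 of 14 among Fc receptors and adaptors. It ended 5 of 15 calls among cytokines and the TNF family, 3 of 13 among cyclins and cell cycle entry, 3 of 10 in cell death, and 2 each in complement (13 calls), cytosolic sensors (12), interferon-inducible GTPases (12) and MHC class I (17).

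**Figure D1:**
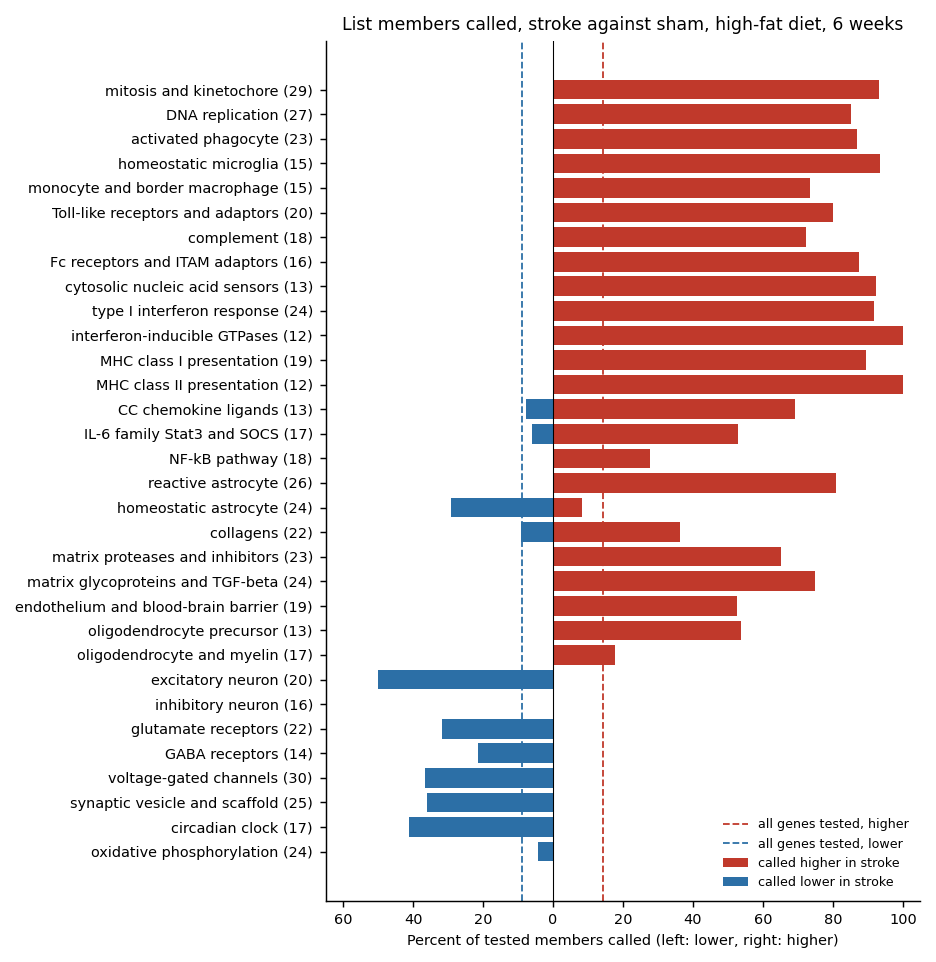
Share of tested members of 32 gene lists called higher (right) or lower (left) after stroke on the high-fat diet at 6 weeks, with the number of tested members in brackets and dashed lines at the shares over all genes tested (14.2% higher, 8.85% lower). Lists of dividing cells, phagocytes, innate sensing and interferon response lie far right of the background line, and neuron lists hold no member called higher.

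Genes of dividing cells rose together. In the list of mitosis and kinetochore genes, which encode the spindle, its attachment to chromosomes and the checkpoint that waits for it, 27 of 29 tested members were called higher and none lower, with a median log2 fold change of 3.00 against -0.02 over all genes. Top2a, the topoisomerase that untangles sister chromosomes, stood at 2.95, 1.84 and 2.33 CPM in the 3 sham libraries and between 47.04 and 74.6 CPM (median 60.96) in the 6 stroke libraries. Its log2 fold change was 4.65 ± 0.65 (SE, edgeR adjusted p = 0.000239). For Ndc80, the kinetochore subunit that grips microtubules, sham libraries gave 0.144, 0.284 and 0.141 CPM and stroke libraries between 3.00 and 4.95 CPM (median 3.82). Every stroke library lay above every sham library for both genes, and the lowest stroke value of Ndc80 was still several times the highest sham value. Cdk1, the kinase that starts mitosis, belongs to the list of cyclins and cell cycle entry, where 13 of 22 members were called higher and none lower. It was at 0.288, 0.284 and 0.212 CPM after sham surgery and between 9.12 and 14.5 CPM (median 11.4) after stroke, a log2 fold change of 5.44 ± 0.71 (SE, edgeR adjusted p = 0.000196). Cyclin B1 (Ccnb1, log2 2.01) and cyclin D1 (Ccnd1, 1.09) rose as well, whereas the levels of cyclin D2 (Ccnd2, 0.06) and the inhibitor Cdkn1b (-0.11) overlapped between the groups and were not called.

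DNA replication genes moved by less. There, 23 of 27 members were called higher with a median of 1.05. Rrm2, the regulated subunit of ribonucleotide reductase that makes DNA building blocks, went from 1.01, 1.21 and 1.13 CPM in the sham libraries to levels between 8.99 and 15.3 CPM (median 11.2) in the stroke libraries. The log2 fold change was 3.39 ± 0.50 (SE, edgeR adjusted p = 0.000256). Mcm6, part of the helicase that opens DNA, was at 8.93, 6.95 and 7.08 CPM after sham surgery and between 21.8 and 37.1 CPM (median 29.8) after stroke, with a log2 fold change of 1.94 ± 0.31. Thymidine kinase (Tk1) had the largest change of the list, 4.85 ± 0.70. The mitosis count was stable, with 26 members called without sham library 2 and 26 with the covariate, but the replication count fell to 15 and 11 in these settings.

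The start sites of the mitosis genes share a short motif. The cell cycle homology region (CHR) was searched as TTTGAA on both strands from 250 bases before to 50 after each start site in RefSeq (GRCm38.p6). It was found for 19 of 25 matched mitosis genes (76%) and for 3 of 23 replication genes (13.04%). The share was 23.56% over genes called at least 2-fold higher and 14.29% over the 11978 genes tested that have a window. Over all 27025 genes in the table it was 20.23%. A CCAAT box (CCAAT, both strands) was found for 19 of the 25 mitosis genes, for 42.28% of genes tested and for 41.06% of all genes. A match is a string of letters in a window and no measure of binding. The counts were made on an older build (mm9), so the coordinates here belong to the promoter table alone. The following windows are the 250 bases before the start of the 3 called mitosis genes with the smallest p and a match there, 5′ to 3′ along the gene, with the CHR in capitals (TTCAAA where it lies on the other strand).
Ube2c (chr2:164769679-164769928, plus strand): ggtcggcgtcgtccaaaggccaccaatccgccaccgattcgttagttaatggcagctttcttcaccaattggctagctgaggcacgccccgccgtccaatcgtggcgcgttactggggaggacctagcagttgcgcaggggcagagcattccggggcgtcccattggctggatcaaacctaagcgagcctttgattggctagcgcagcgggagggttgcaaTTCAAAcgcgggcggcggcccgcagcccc
Top2a (chr11:99024190-99024439, minus strand): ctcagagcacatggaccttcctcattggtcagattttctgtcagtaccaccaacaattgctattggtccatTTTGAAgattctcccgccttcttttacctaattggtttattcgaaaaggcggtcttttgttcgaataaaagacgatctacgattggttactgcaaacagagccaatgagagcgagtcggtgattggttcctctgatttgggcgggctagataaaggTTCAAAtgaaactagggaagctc
Mki67 (chr7:135716380-135716629, minus strand): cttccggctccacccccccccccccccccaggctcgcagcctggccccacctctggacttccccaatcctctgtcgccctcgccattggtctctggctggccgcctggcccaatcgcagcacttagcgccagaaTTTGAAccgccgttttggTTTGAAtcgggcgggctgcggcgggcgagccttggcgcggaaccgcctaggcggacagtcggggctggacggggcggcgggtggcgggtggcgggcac
Ube2c encodes the ubiquitin-conjugating enzyme of the anaphase-promoting complex, and its log2 fold change was 4.67 ± 0.66. In Ube2c and Top2a a CHR begins 29 and 23 bases before the start site (-29 and -23). Mki67, the gene of the proliferation marker Ki-67, holds a pair of them, at -116 and -98. Mki67 itself was at 2.81, 2.34 and 2.62 CPM after sham surgery and between 41.3 and 69.5 CPM (median 60.4) after stroke, without overlap.

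**Figure D2:**
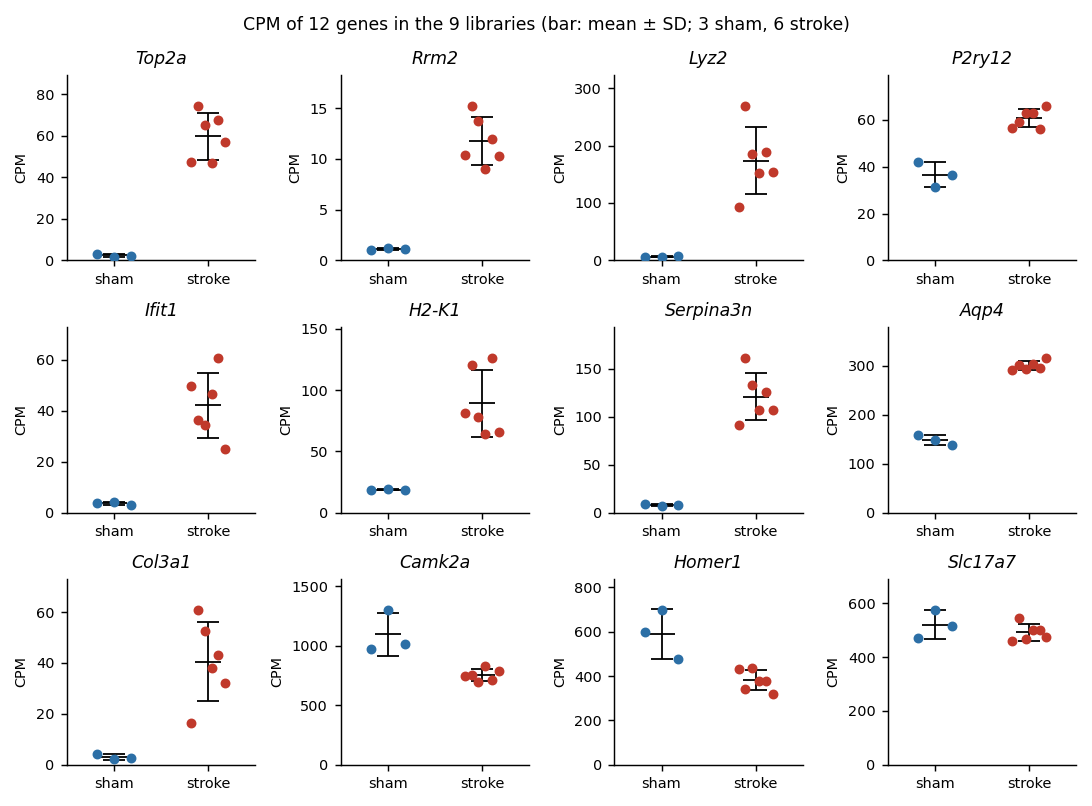
CPM of 12 genes in each of the 3 sham (blue) and 6 stroke (red) libraries, with a bar at the mean and whiskers of 1 SD. Stroke and sham libraries do not overlap for any gene shown except Slc17a7, whose stroke libraries lie between 460.1 and 543 CPM within the sham range or just under it.

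Microglial genes rose, including those of the resting state. Of 15 genes that mark homeostatic microglia, 14 were called higher and none lower (median log2 1.10). The purinergic receptor P2ry12, by which resting microglia sense nucleotides, was at 42, 31.4 and 36.4 CPM in the sham libraries and between 56.2 and 66.1 CPM (median 61.1) in the stroke libraries (log2 0.73 ± 0.11, edgeR adjusted p = 0.000244). Every stroke library lay above every sham library for this gene. Fcrls (2.59 ± 0.44) and the lipid receptor gene Trem2 (2.20 ± 0.37) rose most among the named members, and Mertk, a receptor for dying cells, was at -0.11 and not called. With the covariate, 10 of the 14 calls held.

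Genes of activated phagocytes showed the largest list median of the immune cell types, 4.21, with 20 of 23 tested members called higher and none lower. Lysozyme (Lyz2), made by macrophages and monocytes, was at 6.12, 5.53 and 8.42 CPM after sham surgery and between 92.5 and 269.7 CPM (median 169.6) after stroke. Its log2 fold change was 4.70 ± 0.85 (SE, edgeR adjusted p = 0.000767), with stroke library 2 highest and stroke library 1 lowest. Msr1, a scavenger receptor for oxidised lipoproteins, rose by 5.47 ± 1.04 and was at 0.288, 0.567 and 0.566 CPM in the sham libraries. Gpnmb, a glycoprotein of lipid-laden macrophages, rose by 4.44 ± 0.97, from a mean of 1.85 ± 0.172 CPM (SD, n = 3) to 40.2 ± 17.6 CPM (SD, n = 6). The lysosomal glycoprotein Cd68 (3.27), the lectin Clec7a (5.31) and the cystatin Cst7 (5.62) rose as well. Apoe, the main apolipoprotein of the brain, was at 1216, 939 and 1101 CPM after sham surgery and between 1072 and 1359.7 CPM (median 1137) after stroke, overlapping values (log2 0.10), and Igf1 (0.29) and Lpl (0.45) were not called either. For genes with few or no sham counts a fold is a bound or has a wide interval. The macrophage chitinase-like gene Chil3, with 1 sham count in all, was 169-fold higher (95% counting interval 30.1 to 6684).

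A mixed list of monocyte and border macrophage genes had 11 of 15 tested members called higher and none lower (median 1.88). The chemokine receptor Ccr2, which draws monocytes out of the blood, was at 0.360, 0.355 and 0.283 CPM in sham and between 5.11 and 16.4 CPM (median 9.75) in stroke libraries (log2 5.0 ± 0.98, edgeR adjusted p = 0.00128). Ms4a6c rose by 4.39 ± 0.77. Ly6c2, a surface protein of inflammatory monocytes, had no count in any sham library and was at least 34.3-fold higher against a floor of 3 counts over the sham group. Of the genes used to mark border macrophages, Lyve1 (0.15) and Cd163 (0.11) overlapped between groups and were not called. Pf4 (log2 2.54 ± 0.76) and Cbr2 (1.72 ± 0.49) were called, and both calls were lost without sham library 2 and with the covariate. Without sham library 2, and also with the covariate, 5 of the 11 remained by count.

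Neutrophil and lymphocyte genes were near the limit of detection. Only 8 of 16 neutrophil genes passed the filter on low counts, and 5 of these were called higher, which fell to 2 without sham library 2 and to 1 with the covariate. Of the defining genes, Ly6g and Elane had 0 counts in all 9 libraries, and Mpo had 9 counts over the 6 stroke libraries and 0 over sham. The collagenase Mmp8 had no sham count and was at least 18-fold higher (call lost with the covariate), and Csf3r, the receptor for granulocyte colony-stimulating factor, rose by 1.66 ± 0.35 from a mean of 4.23 to 13.3 CPM. The neutrophil list summed to 15.5 to 26.5 CPM per stroke library and 4.60 to 6.34 CPM per sham library, beside means of 13.3 and 4.23 CPM for Csf3r alone. T cell genes gave 1 call in 5 tested members (Cd28, log2 2.66 ± 0.63), and their sums overlapped, at 8.6 to 18 CPM in stroke and 10 to 20 CPM in sham libraries. Cd3e had 4 counts over the 6 stroke libraries, Cd8a 11 and Ncr1 7, and each had 0 over the sham libraries. Cd22 (4.08) and Cd79b (2.19) were the 2 B cell list members called higher, and the only natural killer gene tested, Klrk1 (3.11), was not called.

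Receptors that sense microbes and damage rose in most families. Among 20 Toll-like receptor genes and adaptors, 16 were called higher (median 1.71). Tlr2, which binds bacterial lipoproteins, was at 1.22, 1.28 and 1.13 CPM after sham surgery and between 10.8 and 16.2 CPM (median 13.03) after stroke, a log2 fold change of 3.46 ± 0.62. Tlr13, the receptor for bacterial ribosomal RNA in the mouse, rose by 2.71 ± 0.52. The adaptor Ticam1 and the kinase Irak2 overlapped between groups and were not called. Cytosolic sensors of nucleic acid gave 12 calls in 13 members with a median of 2.81. Ifi204, a DNA sensor of the Ifi200 family, was at 0.504, 0.142 and 0.283 CPM in sham and between 15.9 and 31.0 CPM (median 20.2) in stroke libraries (log2 6.07 ± 0.79, edgeR adjusted p = 0.000196). Zbp1, a sensor of left-handed nucleic acid, rose by 5.42 ± 0.84, and the RNA sensor gene Ddx58 by 2.14 ± 0.42, and Mavs, the mitochondrial adaptor of such sensors, was at 0.43 and not called. Members of the Ifi200 family, like the Naip, Gbp, Oas, H2-Q and haemoglobin genes, are near-identical in sequence, so their counts are uncertain one by one.

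Of 17 inflammasome genes 13 were called higher. Caspase-11 (Casp4), which cuts the pore protein of pyroptosis, rose by 3.16 ± 0.50 and the adaptor Pycard by 2.75 ± 0.42. The cytokine gene Il1b itself was at 0.360, 0.780 and 0.354 CPM after sham surgery and between 0.461 and 1.97 CPM (median 0.855) after stroke, with overlap, and was not called (log2 1.08 ± 0.58, edgeR adjusted p = 0.183). Il1rn, the antagonist of its receptor, had no sham count and was at least 8.08-fold higher, a call lost without sham library 2 and with the covariate. The inflammasome calls numbered 7 with the covariate and 8 without sham library 3, and the Toll-like receptor calls numbered 9 with the covariate.

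Genes of uptake and killing rose as well. The complement list had 13 calls in 18 members (median 2.11). C1qa, a chain of the first component that tags debris and synapses, went from 45.5, 39.5 and 38.5 CPM to values between 152 and 259 CPM (median 188), a log2 fold change of 2.22 ± 0.41. C3, the central component, rose by 4.47 ± 0.75 from a mean of 0.213 to 4.92 CPM, and its receptor gene C3ar1 by 3.57 ± 0.66. Fc receptors and their adaptors were called in 14 of 16 cases (median 2.51), among them the activating receptor gene Fcgr4 (4.70 ± 0.83) and the shared signalling chain Fcer1g (2.76 ± 0.48). All 7 tested genes of the NADPH oxidase, the enzyme of the oxidative burst, were called higher. Its catalytic subunit gene Cybb was at 0.937, 0.426 and 0.991 CPM in sham and between 11.1 and 21.1 CPM (median 12.8) in stroke libraries (log2 4.26 ± 0.79, edgeR adjusted p = 0.000878). Cathepsin and lysosome genes gave 17 calls in 22 members with a lower median of 0.81, from Ctss (2.24 ± 0.39), the cathepsin of antigen-presenting cells, to Cst3 (0.05) and Ctsf (-0.06), which were not called. That count fell to 9 with the covariate.

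Chemokine genes rose in part. The CC list summed to 65.4 to 76.8 CPM per sham library, most of it from Ccl27a, and to 77.6 to 101.6 CPM per stroke library. The CXC and CX3C list summed to 388 to 513 CPM and 332 to 431 CPM. In the list of CC chemokines 9 of 13 tested members were called higher and 1 lower, with a median of 4.56. Ccl12, a monocyte attractant, was at 0.504, 0.142 and 0.0708 CPM in sham and between 5.65 and 8.79 CPM (median 7.27) in stroke libraries (log2 4.88 ± 0.68, edgeR adjusted p = 0.000196). Ccl3, which attracts macrophages, rose by 4.58 ± 0.64. With 2 sham counts in all, Ccl7 was 27.7-fold higher (95% counting interval 7.51 to 231) and Ccl8 31.2-fold (8.49 to 260.4). Ccl27a, the member that fell, was at 68.2, 62.8 and 58.9 CPM after sham surgery and between 38.9 and 58.4 CPM (median 45.2) after stroke, and its call was lost with the covariate. Of the 9 CXC and CX3C ligands 5 were called higher, and 2 of these calls were lost with the covariate. Cxcl16, a membrane-bound scavenger receptor and chemokine, rose by 3.88 ± 0.67, the neutrophil attractant Cxcl1 was at least 8.20-fold higher over 0 sham counts, and Cxcl12 (0.12) and Cxcl14 (-0.10) were not called.

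Among cytokine genes both ligands and receptors rose. Tnf, the founding cytokine of its family, had 1 sham count and was 50.9-fold higher (95% counting interval 8.96 to 2030). Its receptor genes Tnfrsf1a (2.17 ± 0.42) and Tnfrsf1b (2.09 ± 0.45) both rose, and 15 of 20 members of the list were called. Il6 had 19 counts over the 6 stroke libraries and 1 over sham, Il10 had 2 and 0, and Ifng 3 and 0, all too few to test. Around interleukin-6, the oncostatin receptor gene Osmr was at 5.404, 7.30 and 4.25 CPM in sham and between 16.95 and 26.9 CPM (median 21.7) in stroke libraries (log2 1.96 ± 0.42), and the feedback inhibitor Socs3 rose by 2.30 ± 0.53. Jak1 (-0.01), Jak2 (-0.07) and the shared receptor chain gene Il6st (0.18) were not called. Stat3, their transcription factor, rose by 0.85 ± 0.22, a call lost with the covariate, where 3 of the 9 calls of this list were left by count. Of 18 NF-kB pathway genes 5 were called higher (median 0.31), led by the nuclear regulator Bcl3 (3.99 ± 0.97), while Rela (0.36), Nfkbia (0.26) and Tnfaip3 (0.15) overlapped between groups. The count was 3 without any 1 of the sham libraries and 2 with the covariate.

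Genes induced by type I interferon rose in 22 of 24 cases, with a median log2 fold change of 3.29. Ifit1, which binds foreign RNA lacking the host cap, was at 3.82, 4.18 and 3.04 CPM in the sham libraries and between 25.0 and 60.9 CPM (median 41.6) in the stroke libraries. The log2 fold change was 3.52 ± 0.58 (SE, edgeR adjusted p = 0.000438), and stroke library 5 was highest and stroke library 6 lowest. Mx1, an antiviral GTPase, was at 0.504, 0.213 and 0.141 CPM in sham and between 7.03 and 13.1 CPM (median 9.09) in stroke libraries, a change of 5.01 ± 0.70. Irf7, the transcription factor that amplifies the response, rose by 3.78 ± 0.65 from 2.02, 2.41 and 1.91 CPM to values between 18.8 and 45.1 CPM (median 28.2). Irf9 (2.09 ± 0.33), a factor of the interferon-activated complex, rose as well, whereas the receptor gene Ifnar1 (0.19), Irf3 (0.05) and Irf2 (-0.29) were not called. The interferon gene Ifnb1 had 2 counts over the 6 stroke libraries and 0 over sham. All 12 tested interferon-inducible GTPases were called (median 1.88), with Gbp3 at 2.98 ± 0.41. Herc6 (0.39) and Cmpk2 (0.31) were the 2 response genes not called. The count of response genes held at 22 without sham library 2 and at 21 with the covariate. Of 14 interferon receptors and transcription factors 10 were called higher, and 5 of these 10 calls were lost with the covariate.

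The interferon-stimulated response element (ISRE), the site bound by the Irf9 complex, was searched as GAAANNGAAA on both strands in the same RefSeq windows. It was found for 10 of 18 matched interferon response genes (55.56%), 8 of 8 GTPases, 5 of 17 MHC class I genes (29.41%), 0 of 8 MHC class II genes and 2 of 25 mitosis genes. Over all genes of the table the share was 3.993%, over genes tested 3.815%, over genes called at least 2-fold higher 10.07%, and over genes called lower 3.314%. The windows below are the 250 bases before the start of the 4 called response genes with the smallest p and a match there, shown with each match in capitals (a match on the other strand appears as its reverse complement) because these genes rose together.
Bst2 (chr8:71537473-71537722, minus strand): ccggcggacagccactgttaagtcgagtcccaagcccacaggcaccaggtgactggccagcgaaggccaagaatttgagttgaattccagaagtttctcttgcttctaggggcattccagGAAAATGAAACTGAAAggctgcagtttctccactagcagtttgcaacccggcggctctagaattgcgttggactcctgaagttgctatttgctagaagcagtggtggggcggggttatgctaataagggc
Rsad2 (chr12:26456453-26456702, minus strand): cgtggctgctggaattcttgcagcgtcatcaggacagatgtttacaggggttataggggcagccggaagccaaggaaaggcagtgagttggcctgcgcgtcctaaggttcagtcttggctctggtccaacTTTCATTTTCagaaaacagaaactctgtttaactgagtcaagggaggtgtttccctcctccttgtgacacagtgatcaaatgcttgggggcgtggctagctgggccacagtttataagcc
Ifit1 (chr19:34640639-34640888, plus strand): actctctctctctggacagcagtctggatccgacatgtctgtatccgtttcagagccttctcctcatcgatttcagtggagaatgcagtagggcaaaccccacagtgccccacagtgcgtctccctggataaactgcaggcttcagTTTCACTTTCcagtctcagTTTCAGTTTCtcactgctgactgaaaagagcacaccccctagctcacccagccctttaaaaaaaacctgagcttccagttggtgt
Oas1a (chr5:120907526-120907775, minus strand): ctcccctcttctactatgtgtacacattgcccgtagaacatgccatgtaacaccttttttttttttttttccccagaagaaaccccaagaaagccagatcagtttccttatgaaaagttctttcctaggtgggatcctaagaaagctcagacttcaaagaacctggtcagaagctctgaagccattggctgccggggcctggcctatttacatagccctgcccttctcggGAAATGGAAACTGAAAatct
Bst2 encodes tetherin, which holds budding virus at the cell surface, and rose by 3.57 ± 0.58. Its 2 matches, at -130 and -124, overlap. Rsad2 encodes viperin, an enzyme that makes a chain-terminating nucleotide, and rose by 2.89 ± 0.48, with its match at -120. Ifit1 has matches at -104 and -85, and Oas1a, an RNA-activated synthetase gene with close relatives, at -20 and -14 (log2 3.80 ± 0.64).

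Antigen presentation rose in both classes. Of 19 MHC class I pathway genes 17 were called higher, with a median of 1.71. H2-K1, a classical class I heavy chain, was at 18.4, 19.01 and 18.7 CPM in the sham libraries and between 64.3 and 127 CPM (median 79.5) in the stroke libraries (log2 2.25 ± 0.43, edgeR adjusted p = 0.001). The sham values lay within 1 CPM of each other, and stroke libraries 5 and 2 were highest. B2m, the light chain, rose by 1.71 ± 0.30, the peptide transporter Tap1 by 2.95 ± 0.52 and the immunoproteasome subunit Psmb8 by 2.69 ± 0.47, but Psmb10 was at 0.29 and not called. All 12 class II genes were called (median 2.11), including H2-Ab1 (3.70 ± 0.74) and H2-Aa (3.23 ± 0.74). Ciita, the master regulator of class II, had 1 sham count and was 27.5-fold higher (95% counting interval 4.75 to 1102). The class II count was 8 without sham library 2 and 7 with the covariate.

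**Figure D3:**
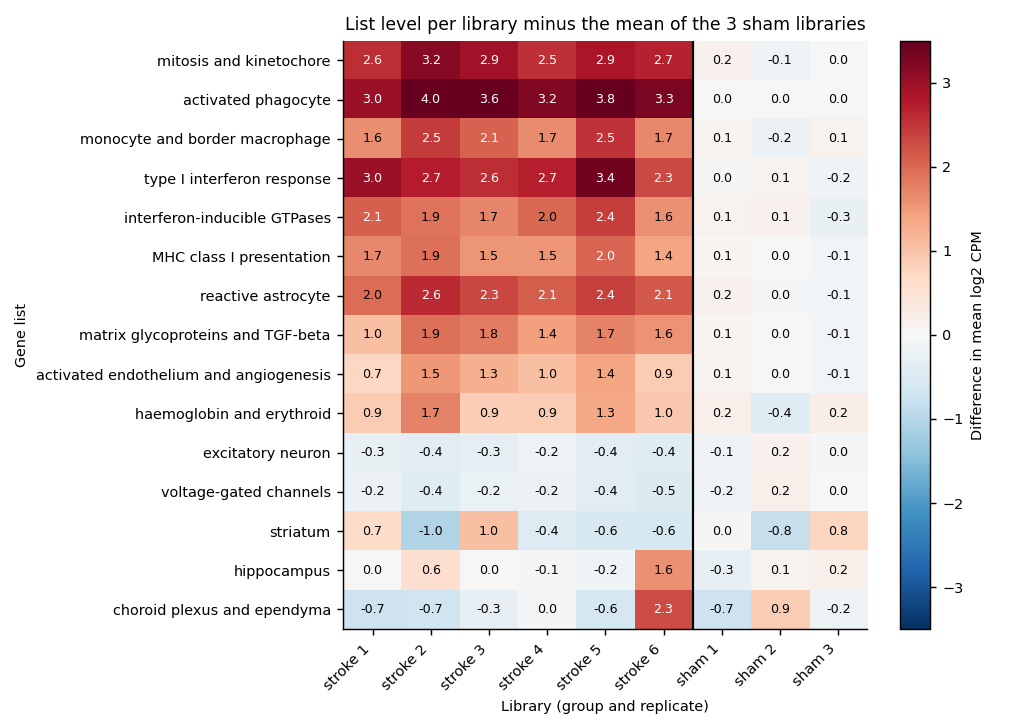
Difference of each library's list level (mean log2 CPM of the tested members, prior count 2) from the mean of the 3 sham libraries, for 15 lists and 9 libraries. All 6 stroke libraries lie above the sham libraries for mitosis, phagocyte, interferon and astrocyte lists, stroke libraries 2 and 5 lie highest for phagocyte and monocyte lists, and stroke library 6 lies highest for choroid plexus and hippocampus lists.

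The plot of list levels shows which stroke libraries were high. The mitosis list lay 2.5 to 3.2 above the sham mean on the log2 scale in every stroke library. The phagocyte list ranged from 3.0 in stroke library 1 to 4.0 in stroke library 2. For the interferon list the order was another: stroke library 5 was highest at 3.4 and stroke library 6 lowest at 2.3. Excitatory neuron genes were 0.2 to 0.4 below the sham mean in every stroke library.

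Astrocyte genes split by function. Of 26 reactive astrocyte genes 21 were called higher and none lower (median 1.98). Serpina3n, a secreted protease inhibitor, was at 9.15, 7.16 and 7.64 CPM after sham surgery and between 90.9 and 161 CPM (median 116) after stroke (log2 3.92 ± 0.71, edgeR adjusted p = 0.000743). Vimentin (Vim), an intermediate filament, was at 24.2, 21.8 and 18.04 CPM in sham and between 189 and 373 CPM (median 234) in stroke libraries, a change of 3.56 ± 0.59. Cd44, the hyaluronan receptor, rose by 3.00 ± 0.63 and Timp1, an inhibitor of matrix proteases, by 4.89 ± 0.83. Within the same list Amigo2 (0.01), Fkbp5 (-0.04) and Sphk1 (-0.43) were not called.

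Of 24 homeostatic astrocyte genes 2 were called higher, 7 lower and 15 in neither direction, with a median of -0.06. The shares over all genes tested were 14.2% higher and 8.85% lower. Aqp4, the water channel of the astrocyte endfeet, was at 159, 148 and 138 CPM in the sham libraries and between 291 and 317 CPM (median 298) in the stroke libraries (log2 1.02 ± 0.16, edgeR adjusted p = 0.000282), without overlap. Ppp1r3g, which directs glycogen synthesis, fell by 0.88 on the log2 scale, from 12.2, 8.44 and 8.77 CPM to values between 4.25 and 6.23 CPM (median 5.31). Gjb6, a gap junction gene, had a log2 fold change of -0.32 ± 0.08. Glutamate transporter Slc1a2 was called (log2 -0.37 ± 0.13) although its groups overlapped, with 2331, 3865 and 2778 CPM in sham and between 2162 and 2475 CPM (median 2341) in stroke libraries, and without sham library 2, 3 or stroke library 2 or 5 the call was lost. Its partner Slc1a3 (-0.08) and the gap junction gene Gja1 (0.11) were not called. The lower calls numbered 4 without any 1 of the sham libraries and 4 with the covariate.

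Matrix and vessel genes rose with more spread. Col3a1, a fibrillar collagen of fibroblasts, was at 4.39, 2.41 and 2.48 CPM in sham and between 16.4 and 60.9 CPM (median 40.6) in stroke libraries, and stroke library 1 was lowest (log2 3.71 ± 0.92, edgeR adjusted p = 0.00664). Its call was lost when stroke library 6 and sham library 2 were both left out. Of 22 collagen genes 8 were called higher and 2 lower, the latter near the share of 8.85% over all genes tested. The higher count was 1 without sham library 2 or 3 and 4 without sham library 1. With the covariate 9 of the 10 collagen calls were lost, and 0 held in every alternative. Thbs1, the matrix protein thrombospondin-1, rose by 4.47 ± 1.02, from 1.80, 2.34 and 1.91 CPM to values between 16.5 and 68.2 CPM (median 46.2). Matrix glycoprotein and TGF-beta genes gave 18 calls in 24 members (median 1.49), 10 without sham library 2 and 10 with the covariate. Proteases and inhibitors gave 15 calls in 23 members and 9 with the covariate. The macrophage elastase Mmp12, with 2 sham counts, was 97.7-fold higher (95% counting interval 26.9 to 809), and stromelysin Mmp3, with none, at least 61.3-fold. Timp3 (-0.02), an inhibitor of such proteases, and Mmp17 (-0.02) overlapped between groups. Of 11 meningeal genes 2 were called higher, near the share of 14.2% over all genes tested. These were Lum (2.68 ± 0.74) and Dcn (2.30 ± 0.55), which other fibroblasts also make. The call of Lum was lost without sham library 2 and with the covariate. Ptgds (-0.30) and Slc22a6 (-0.30) were not called.

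Endothelial genes were higher in part. The blood-brain barrier list had 10 calls in 19 members with a median of 0.37, and 1 with the covariate, 3 without sham library 3 and 4 without sham library 1. Tie1 (1.17), a receptor of endothelial cells, was called, though not with the covariate. The glucose transporter gene Slc2a1 (0.06) and Mfsd2a (-0.25), a lipid transporter of the barrier, were not called. Von Willebrand factor (Vwf), released by activated endothelium, was at 6.99, 8.23 and 9.27 CPM in sham and between 26.3 and 60.4 CPM (median 41.4) in stroke libraries (log2 2.37 ± 0.54, edgeR adjusted p = 0.00398). The adhesion genes Selp and Sele had no sham counts and were at least 18-fold and 10.5-fold higher, and the call of Selp was lost without sham library 2 and with the covariate. Icam1, a ligand for leukocyte integrins, rose by 2.20 ± 0.40. Vegfa, the main growth factor of vessels, was at 0.05 and not called. The list of activated endothelium and angiogenesis had 10 calls in 19 members. Of these 10 calls 5 were lost with the covariate and 4 without sham library 2. Haemoglobin genes, a measure of blood in the tissue, were all 5 called higher. Of these 5 calls 3 held in every alternative, 2 were lost without sham library 2 and 0 with the covariate. Hbb-bs was at 68.8, 52.9 and 66.2 CPM in sham and between 99.8 and 194 CPM (median 117) in stroke libraries, and the 5 genes summed to 163 to 307 CPM per stroke library and 78.3 to 109 CPM per sham library. The part of blood in the rise of leukocyte genes was not tested.

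Neuronal genes were lower by small amounts, and these calls depended on few libraries. In 7 lists of neuronal genes, which hold 143 different tested genes, 44 were called lower and none higher. Of these 44 calls 6 held in every alternative, 30 were lost without sham library 2 and 33 were lost with the covariate. Homer1, a scaffold of the postsynaptic density, was at 599, 698 and 475 CPM in the sham libraries and between 321 and 435 CPM (median 379) in the stroke libraries (log2 -0.63 ± 0.14, edgeR adjusted p = 0.00219). Its call was lost when stroke library 6 and sham library 2 were both left out. Scn1a, a sodium channel subunit, was at 413, 464 and 414 CPM after sham surgery and between 214 and 364 CPM (median 287) after stroke, a change of -0.58 ± 0.14 that held in every alternative. The calcium channel subunit Cacnb4 (-0.58 ± 0.13) and the synaptic organiser Cbln2 (-0.79 ± 0.20) also held. The groups did not overlap for these 4 genes.

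Counted by list, 10 of 20 excitatory neuron genes were called lower (median -0.36), 11 of 30 voltage-gated channels (-0.31), 9 of 25 synaptic genes (-0.26) and 7 of 22 glutamate receptor genes (-0.24). Without sham library 2 the numbers were 1, 4, 3 and 2, and with the covariate 2, 4, 2 and 1. Camk2a, the kinase abundant in excitatory synapses, was at 971, 1301 and 1014 CPM in sham and between 697 and 829.9 CPM (median 748) in stroke libraries, with sham library 2 highest. It was called (log2 -0.54 ± 0.16, edgeR adjusted p = 0.0164), and the call was lost without sham library 2 and with the covariate. The vesicular glutamate transporter Slc17a7, a marker of the same cells, was at 469, 575 and 515 CPM and between 460.1 and 543 CPM (median 488), overlapping values that were not called (edgeR adjusted p = 0.595). None of the 16 inhibitory neuron genes was called in either direction (median -0.14), with Gad1 at -0.16 ± 0.10, Gad2 at -0.01, Sst at -0.09 and Pvalb at -0.38. The difference between the excitatory and inhibitory lists was not tested. As a check of the tissue, the excitatory list summed to 7204 to 8173 CPM per stroke library and 9060 to 10469 CPM per sham library, and Slc17a7 and Gad1 were detected in all 9.

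Neighbouring tissue varied among libraries of both groups. Striatal genes such as Drd2 and Adora2a were high in stroke libraries 1 and 3 and sham library 3, the striatum list summed to 368 to 1388 CPM per stroke library and 491 to 1132 CPM per sham library, and 0 of its 12 members were called. Choroid plexus genes summed to 285 to 1566 CPM per stroke library and 378 to 671 CPM per sham library. Of 11 members 2 were called higher (Rarres2, 1.24, and Foxj1, 0.59), near the share of 14.2% over all genes tested. The call of Foxj1 was lost without any 1 of the sham libraries. Hippocampal genes gave 0 calls in 10. How much of the neuronal differences comes from the place of dissection was not tested.

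Genes of axon injury and regrowth rose in part, with 6 of 18 tested members called higher and 2 lower (median 0.22). The shares over all genes tested were 14.2% and 8.85%, so the lower count was near its share. Of these 8 calls 4 were lost with the covariate. Atf3, a transcription factor of injured axons, was at 0.504, 0.780 and 0.778 CPM after sham surgery and between 4.66 and 9.78 CPM (median 7.36) after stroke (log2 3.42 ± 0.60, edgeR adjusted p = 0.000553). Tubb6, a tubulin, rose by 4.20 ± 0.81 and Jun by 0.84 ± 0.12, but the growth cone genes Gap43 (0.04) and Stmn2 (-0.08) were not called. The members called lower were Rtn4r (-0.43), a receptor for myelin inhibitors of axon growth, and its partner Lingo1 (-0.41), both lost with the covariate. Of 20 immediate early genes only Jun and Junb were called. Fos (0.68), Arc (0.19) and Egr1 (-0.06) overlapped between groups. Genes of programmed cell death rose in 10 of 20 cases: the necroptosis kinase Ripk3, with 3 sham counts, was 20.1-fold higher (95% counting interval 6.73 to 98.6), its target Mlkl rose by 2.72 ± 0.59 and the initiator caspase Casp8 by 2.11 ± 0.42. The p53 targets Cdkn1a (0.24) and Mdm2 (0.13) and the mitochondrial regulators Bcl2 (-0.15) and Bcl2l1 (-0.06) were not called.

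Oligodendrocyte genes moved little. Of 17 myelin genes 3 were called higher, near the share of 14.2% over all genes tested, and none of these calls was left without sham library 2 or with the covariate. Mbp, a main protein of myelin, was at 1987, 1363 and 1795 CPM in sham and between 1380.1 and 1871 CPM (median 1564) in stroke libraries (log2 -0.09), and was not called. Precursor genes gave 7 calls in 13 members with a median of 0.44. Olig1, a transcription factor of the lineage, was at 40.1, 32.2 and 32.1 CPM and between 49.6 and 61.3 CPM (median 54.0), a change of 0.65 ± 0.16 whose call was lost with the covariate. The precursor count was 2 without sham library 1, 3 without sham library 2 or 3, and 2 with the covariate.

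Genes of lipid, glucose and iron handling were called in part. Slc16a1, the monocarboxylate transporter that carries lactate and ketone bodies across cell membranes, had the smallest p of all genes tested. It was at 46.3, 42.2 and 47.2 CPM in the sham libraries and between 70.2 and 82.3 CPM (median 72.4) in the stroke libraries, with a log2 fold change of 0.73 ± 0.09 (SE, edgeR adjusted p = 0.000107). The lactate exporter Slc16a3 rose by 1.57 ± 0.29, and so did Hk3 (3.10 ± 0.59), the hexokinase of myeloid cells, and Hk2 (1.39 ± 0.31). Of the other glycolytic genes, Ldha (0.07), Pgk1 (0.00) and Gapdh (-0.09) overlapped between groups. The list as a whole had 5 calls higher and 2 lower in 23 members, beside shares of 14.2% and 8.85% over all genes tested. Its median was -0.01, and 3 of these 7 calls were lost with the covariate. Of 24 oxidative phosphorylation genes 1 was called, Atp5a1 at -0.16 ± 0.05, and the median was -0.02. The call of Atp5a1 was lost without sham library 1 or 3, without stroke library 2, 3 or 5 and with the covariate.

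In fat metabolism, 11 of 23 genes of fatty acid oxidation and PPAR targets were called higher and 2 lower. Ucp2, a carrier of the inner mitochondrial membrane, rose by 2.02 ± 0.46 from 2.67, 4.26 and 4.10 CPM to values between 10.8 and 20.5 CPM (median 13.7). Fabp7, the fatty acid binding protein of radial glia and astrocytes, rose by 2.42 ± 0.37. Enzymes of the oxidation spiral such as Acadm (0.02) and Hadhb (0.13) were not called. Plin4, a lipid droplet coat gene, was called lower (log2 -1.32 ± 0.33) although its groups overlapped, at 15.6, 6.88 and 28.2 CPM in sham and between 4.92 and 7.61 CPM (median 7.10) in stroke libraries, and the call was lost without sham library 3 and with the covariate. The list of cholesterol efflux and lysosomal lipid genes had 8 of 17 members called higher and none lower (median 0.42), and 6 of the 8 calls were lost with the covariate, among them those of the lysosomal lipase gene Lipa (1.19) and the cholesterol carrier gene Npc2 (1.15). Ch25h, which makes an oxysterol, rose by 3.80 ± 0.70, and Abca1, the cholesterol exporter, by 1.07 ± 0.28, a call lost without sham library 1 and with the covariate. Of 19 cholesterol synthesis genes 3 were called higher, near the share of 14.2% over all genes tested, and all 3 calls were lost with the covariate. The higher calls of the fatty acid list numbered 7 without sham library 1 or 2 and 5 with the covariate.

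Of 17 iron and haem genes 8 were called higher and none lower (median 0.36), and 4 of the 8 calls were lost with the covariate. Haem oxygenase-1 (Hmox1), which breaks down haem, was at 3.60, 3.12 and 3.61 CPM in sham and between 14.8 and 37.9 CPM (median 24.5) in stroke libraries, a change of 2.92 ± 0.52 (SE, edgeR adjusted p = 0.00071). The ferritin light chain gene Ftl1 rose by 1.63 ± 0.38, a call lost with the covariate. The metal transporter of phagosomes, Slc11a1, rose by 2.52 ± 0.51, while the transferrin receptor Tfrc (0.12) and Ncoa4 (0.01), which releases iron from ferritin, were not called. Nfe2l2, the regulator of antioxidant genes, rose by 1.15 ± 0.26, but its targets Gclc (-0.06), Gclm (0.01), Nqo1 (0.32) and Srxn1 (-0.16) were not called. Of the heat shock genes, Hspa1a (0.57), Hspa5 (0.09) and Dnajb1 (-0.13) were not called either. The list of oxidative stress and heat shock had 7 of 22 members called higher and 1 lower, and 4 of these 8 calls were lost with the covariate.

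Some glucocorticoid and clock genes were lower by small amounts. Tsc22d3, a glucocorticoid-induced inhibitor of inflammation, was at 132, 106 and 127 CPM in sham and between 68.7 and 92.5 CPM (median 82.9) in stroke libraries (log2 -0.57 ± 0.11, edgeR adjusted p = 0.000743). Of 17 glucocorticoid-response genes 4 were called lower and 2 higher, 4 of these 6 calls were lost with the covariate, and Sgk1 (0.03), Per1 (-0.09) and Fkbp5 (-0.04) were not called. Clock genes were called lower in 7 of 17 cases (median -0.21), and the count was 2 without sham library 2, 3 without sham library 3 and 1 with the covariate. H19, an imprinted noncoding RNA of growing tissue, was at 0.216, 0.0709 and 0.0708 CPM after sham surgery and between 3.17 and 8.76 CPM (median 5.398) after stroke, without overlap (log2 5.46 ± 0.89, edgeR adjusted p = 0.000374). Its neighbour Igf2 (-0.20) was not called, and the binding protein gene Igfbp2 rose by 1.41 ± 0.27.

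Among genes outside these groups, Capn3, a calcium-dependent protease, was among the smallest p, at 6.196, 4.40 and 5.38 CPM in sham and between 14.4 and 21.2 CPM (median 16.3) in stroke libraries (log2 1.67 ± 0.21, edgeR adjusted p = 0.000123). Spint1, an inhibitor of membrane serine proteases, rose by 2.20 ± 0.30, from 1.153, 0.993 and 1.42 CPM to values between 4.10 and 6.56 CPM (median 5.47). Of the genes called lower, Zfp180, a zinc finger gene, had the smallest p and fell by 0.53 on the log2 scale, from 126, 110.3 and 120.3 CPM to values between 77.5 and 88.0 CPM (median 82.1), again without overlap. Among called genes the largest rise in CPM was that of Ctsd, a lysosomal protease, from 355 ± 27.7 CPM (SD, n = 3) to 1448 ± 256 CPM (SD, n = 6). Actin (Actb, log2 0.65) and its partner thymosin (Tmsb4x, 0.85) were also among the 10 largest. Among the 10 called genes with the largest falls in CPM were the axonal motor Kif5a (-0.33 ± 0.07), the spectrin Sptan1 (-0.29 ± 0.07) and the adenylate cyclase Adcy1 (-0.44 ± 0.08), and these 3 calls held in every alternative.

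The largest fold changes included genes hardly read in sham cortex. Among called genes with at least 5 CPM in the higher group and no overlap, the largest fitted rises were those of Cd5l and Lcn2, which had no sham count. Cd5l, a secreted macrophage protein, had 1406 counts over the 6 stroke libraries and was at least 206.9-fold higher. Lcn2, a lipocalin that binds bacterial iron carriers, had 815 and was at least 118.6-fold higher. Tgm1, a transglutaminase gene, had 2 sham counts and was 554.6-fold higher (95% counting interval 153 to 4582). The chemokine gene Cxcl10, also with 2, was 164-fold higher (45.3 to 1358), and Ccl2, with 3, 79.3-fold (27.0 to 386). These ratios carry wide intervals because the sham counts were so few. Spp1, the gene of osteopontin, was at 12.97, 8.94 and 14.9 CPM in sham and between 365 and 970.0 CPM (median 739) in stroke libraries (log2 5.8 ± 0.99, edgeR adjusted p = 0.000542). Lgals3, a galectin of phagocytes, rose by 6.32 ± 1.17, and the interferon-induced gene Ifi27l2a by 5.03 ± 0.74. Gfap, the filament gene of astrocytes, was at 95.8, 85.6 and 91.6 CPM in sham and between 803 and 941 CPM (median 855) in stroke libraries, a rise of 3.25 ± 0.43. Apod, a lipocalin gene of glia, rose by 1.64 ± 0.37, and the elongation factor gene Eef1a1 by 0.42 ± 0.09. Ctsb (log2 0.84) and Fth1 (0.45) were also among the 10 largest rises in CPM, but both calls were lost without sham library 2. Gpr34 (1.43 ± 0.19), a lipid receptor gene of microglia, and Hpgd (1.12 ± 0.16), whose enzyme inactivates prostaglandins, were among the 10 smallest p.

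The largest falls were small beside these. Cbln4, a synaptic organiser gene, was at 9.29, 16.3 and 13.9 CPM in sham and between 4.17 and 7.51 CPM (median 5.97) in stroke libraries (log2 -1.19 ± 0.21, edgeR adjusted p = 0.000531), without overlap. The calls of Cbln4, Alox12b (-0.98), Morc2b (-0.80) and Rims3 (-0.74) held in every alternative. Dmp1 (-0.81), Inhba (-0.79), Cpne9 (-0.77) and Myh7b (-0.75) were called except with the covariate. The calls of Tmem200b (-0.83), Col24a1 (-0.82), Tspan11 (-0.81), Lamp5 (-0.78), Six4 (-0.73), Kirrel2 (-0.72), R3hdm1 (-0.71), Ddit4l (-0.69) and Myo5c (-0.69) were lost when stroke library 6 and sham library 2 were both left out. Of the largest falls in CPM, Snap25 (-0.40), a protein gene of vesicle fusion, Sparcl1 (-0.37), Ppp3ca (-0.44), Meg3 (-0.55) and Map2 (-0.30) were lost with the covariate.

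On the control diet at 6 weeks the same fit called 833 genes higher (5.1%) and 420 lower (2.57%), from 4 stroke and 3 sham libraries that are not part of the comparison above. Genes called in both diets numbered 738 higher and 219 lower, and 0 were called in opposite directions. Of the 2324 genes called higher on the HFD, 2261 had a log2 fold change above 0 on the control diet, and of the 1445 called lower, 1323 had one below 0. Of 59 lists with at least 10 tested members, 49 had a higher median on the HFD than on the control diet. Mitosis genes were called in 24 of 29 cases on the control diet (median 2.60), interferon response genes in 20 of 24 (2.22) and phagocyte genes in 17 of 23 (3.73). MHC class I genes were called in 7 of 19 cases (median 0.82), where H2-K1 was at 1.19 on the control diet and 2.25 on the HFD, and excitatory neuron genes in 1 of 20 (median -0.27). For Top2a the values were 3.79 and 4.65, for Ifit1 2.01 and 3.52, for Slc16a1 0.18 and 0.73, for Aqp4 0.97 and 1.02, and for Homer1 -0.30 and -0.63, each first on the control diet and then on the HFD.

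**Figure D4:**
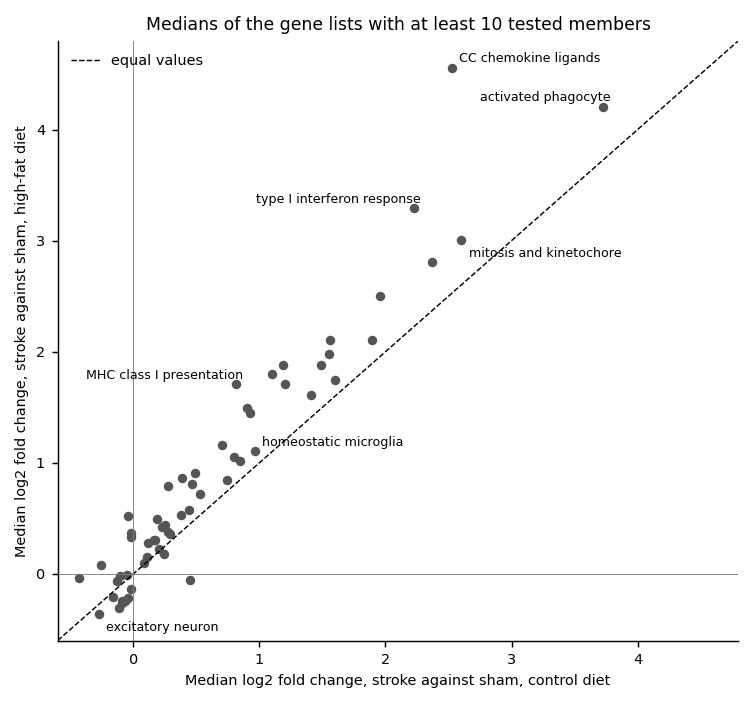
Median log2 fold change of stroke over sham in each of the 59 lists with at least 10 tested members, on the control diet (horizontal) and the high-fat diet (vertical), with a line of equal values. The higher median was on the high-fat diet in 49 of the 59 lists, and no difference between the diets was called for any gene by edgeR.

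The difference between the diets was tested gene by gene as the surgery by diet term of the same fit, and 0 of 16325 genes passed (0.0%), with 914 at an unadjusted p below 0.05. With voom and with DESeq2, 1 gene passed, Junb, a subunit of the AP-1 transcription factor. Junb was at 28.5, 50.6 and 38.3 CPM in sham and between 58.9 and 77.7 CPM (median 62.3) in stroke libraries on the HFD (log2 0.75 ± 0.17), and its log2 fold change on the control diet was -0.53. The difference was 1.28 (unadjusted p = 3.12e-05 in edgeR's quasi-likelihood test). Next by p came Ier5l (difference 1.16), Gpr62 (0.79), Slc16a1 (0.55, unadjusted p = 0.000175) and Adam21 (1.96), none past the threshold. A larger count of calls on the HFD is therefore not shown to be a larger response, since the groups also differed in size, with 6 stroke libraries against 4.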

How the data were processed

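Total RNA from frozen cortex was extracted with Trizol and sequenced as stranded paired-end libraries, per the labels' protocols. The values deposited by the authors are raw counts per Ensembl gene, 1 table per library; mm9 is the build and HTSeq, featureCounts, STAR and Trim Galore the tools listed, per the submitters' processing notes. Roles, versions, the annotation and the strand setting of the counting are not given in the sources used here. Each table holds 39179 genes and 5 summary entries, which took between 46.8% and 55.6% of all counts in the 9 libraries and entered neither library sizes nor tests. Names came from GENCODE M21 for 37607 identifiers.

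All 26 libraries entered 1 fit with 1 mean per group in edgeR 4.0.16 (R 4.3.3), by the robust quasi-likelihood test after filterByExpr with a minimum count of 10 and TMM scaling. P-values were adjusted by Benjamini-Hochberg over 16325 genes at 0.05. The SE is the size of the log2 fold change divided by the square root of F. A list level averages its genes' log2 CPM (prior count 2). Folds over 0 sham counts were taken against a floor of 3 counts over the sham group (0.0712 CPM), folds over 1 to 3 counts carry an exact 95% interval for counting error only, and fitted medians of lists used the model's values: only the neutrophil list moved with such genes at their bound, from 3.07 to 1.89. The fit was also run on simulated counts without differences in tissue composition, so that run says nothing about such differences. Any pair of libraries of 1 group differed by at least 3.52 times the chi-square of counting alone.

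The 67 lists (1222 entries, 1217 matched) and the groups of genes described were chosen with earlier results of these data known, so lists carry no p-value. Genes were named by rule: the 20 largest changes in each direction among called genes (predicted and clone names left out) with a mean of at least 5 CPM in the higher group and no overlap; the 10 per direction with the largest difference in CPM; the 10 with the smallest p; the 5 with the smallest p for surgery by diet; and list members, by smallest p and including some that did not pass. Some of these genes are not reported here. Promoters are from RefSeq. Alternatives were RLE size factors, no filter, a minimum count of 50, leaving out haemoglobin, mitochondrial and ribosomal RNA genes, a covariate for the share of fragments that fell outside genes, only the groups compared, voom in limma 3.58.1, DESeq2 1.42.0, leaving out each library, and leaving out stroke library 6 with sham library 2. Replicate numbers are in accession order and only name a library.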

Additional observations from a re-analysis of the deposited data

Results flagged for a closer look

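In groups of 6 libraries a value was singled out when its gap to the nearest other, divided by the range, exceeded 0.625. Chance passes this limit in about 1 of 20 groups. In all, 144 values were examined and 7 passed, all among the 6 stroke libraries compared here. That number is near what chance alone would pass at this limit. Stroke library 6 had a mitochondrial share of 10.16% against 7.507 to 8.251% in the other 5, a choroid plexus and ependyma list level of 4.224 log2 CPM against 1.217 to 1.905, and a thalamus or hypothalamus list level of 1.824 against 0.6987 to 1.082. Etnppl, an astrocyte enzyme of phospholipid breakdown that was called lower, was at 14.2 CPM in the same library and at 8.706 to 9.477 CPM in the others. Stroke library 2 had a structural RNA share of 2.218% against 2.981 to 3.319%. In stroke library 5, 2 interferon-inducible genes were high: Slfn4 at 15.13 CPM against 2.133 to 4.947, and Ifi209 at 12.06 CPM against 6.688 to 7.829. The calls of Slfn4, Ifi209 and Etnppl held in every alternative.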

How the results depend on the processing

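For stroke against sham on the high-fat diet, 2324 genes called higher and 1445 called lower became 1033 and 310 with a covariate for fragments that fell outside genes, and 1339 and 494 without stroke library 6 and sham library 2. With voom 2695 were called lower. Leaving out 1 library gave 1398 to 2362 higher and 593 to 1431 lower, both lowest without sham library 2, and 906 lower without sham library 3. List members called higher numbered 496, or 318 with the covariate (380 to 501 leaving out 1 library). Those called lower numbered 74, or 18 with the covariate, 29 without both libraries and 31 to 83 leaving out 1. On the control diet, 833 higher and 420 lower became 315 and 219 with the covariate, 1537 and 916 in a fit of only the groups compared and 1654 and 1176 with voom. No filter gave 460 higher and DESeq2 644 lower. Leaving out 1 library there gave 189 to 938 higher and 84 to 510 lower, and each control library except stroke libraries 1 and 4 lowered both counts by over 1.5 times when left out (higher calls 189 to 458, lower calls 84 to 245). For surgery by diet, 0 became 1 with voom and 1 with DESeq2. The higher share of haemoglobin counts after stroke, 0.0111 percentage points, was 0.00887 to 0.0119 leaving out 1 library, and 0.0102 to 0.0115 without 1 sham library, where 6 against 2 libraries give an exact p of 0.0714. The cause of these shifts was not tested. Of 601 called genes named or listed, 331 kept the call in every alternative, and 0 of 1104 changed from called higher to called lower or back. No paired analysis was possible because the labels carry no replicate numbers. A gene near the filter rests on about 10 counts per library, where only large changes can be detected.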

Other observations

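Most of the genes with the largest spread among the 6 stroke libraries were not called. Lars2, a mitochondrial tRNA ligase, was at 786, 138 and 6365 CPM in the sham libraries and between 60.2 and 2023 CPM (median 229.7) in the stroke libraries, highest in sham library 3 and stroke library 6. Small noncoding RNAs of the Ro particle were low in stroke library 2: Rny1 was at 15.2 CPM there against 76.6 to 93.2 CPM in the other 5, and Rny3 at 18.7 against 86.9 to 99.6 CPM. Rnu3a, a small nucleolar RNA, was at 3.16 CPM in that library and at most 47.6 CPM in stroke library 5. The striatal gene Drd2 ranged over 1.01 to 13.2 CPM among the stroke libraries, and Fibcd1 and Npy2r were highest in stroke library 6, at 36.8 and 27.2 CPM. Thbs1 and Arg1 varied most among the genes called higher apart from Slfn4, both lowest in stroke library 1, at 16.5 and 1.88 CPM.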
